A study of Mus musculus with 39 samples.

Results

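The immunoglobulin chain probes on arrays of mouse epididymal adipose are described here. Members were all non-control probes whose gene name begins with Igh, Igk or Igl or is Igj, or whose description joins the word immunoglobulin to heavy, light, kappa, lambda, alpha chain, joining or V gene segment. The rule found 63 of 40628 probes. Of these, 59 read an immunoglobulin chain gene by name or description, and 4 met the rule by spelling alone: Ighmbp2, Iglon5, Rbpj and Rbpjl. The 59 chain probes were 29 for kappa variable segments, 18 for heavy variable segments, 5 for gamma heavy chains, 5 for other heavy chains and 2 for the joining chain. No probe that met the rule is named or described in the files as lambda or as a constant region of IgA, IgD or IgE. Igh probes 1 and 2 are described as the heavy variable J558 family, but their closest heavy variable probe among the members matched at only 46.7 and 44.4% of bases. No reference sequence was used here, so whether they read that family or a constant region, and of which isotype, is not settled here. The names chose the members, but the group was singled out because earlier results of these data showed its probes higher on the late than on the early low-fat arrays. That contrast, and the late rise on the high-fat diet, are therefore given as descriptions.

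C57BL/6J mice entered the feeding experiment at weaning, aged 3 to 4 weeks, in 5 groups of 30, and 5 animals of a group were killed at each interval. LFC mice ate a diet with 10% of calories from fat, and HFC mice a high-sucrose diet with 60% of calories from fat. HF5, HF20 and HF75 mice ate the HFC diet and received KAL-1, a botanical formulation, at 5, 20 or 75 µg. There were 11 LFC arrays (days 1, 6, 10 and 14 and weeks 0, 3, 6, 9, 12, 15 and 18), 10 HFC arrays (the same without day 1) and 6 arrays per KAL-1 dose (weeks 3 to 18). A paper on liver arrays of the same experiment counts weeks from day 14, and treats day 14 and week 0 as the same time. They are kept apart here. Days 1 to 14 and week 0 are called early, and weeks 3 to 18 late. Each diet had 1 array at each time point, so the time points stood in for replicates. The sources used here do not give how many animals an array's RNA came from.

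Antibodies are built from heavy and light chains. Each developing B cell joins variable, diversity and joining segments into a chain of its own, and the variable part is then read together with a constant region that sets the isotype, such as mu for IgM and gamma for IgG. Most mouse light chains are kappa. Plasma cells make these transcripts in far larger amounts than resting B cells, and the joining chain, coded by Igj (now Jchain), links IgM and IgA units into polymers. Visceral fat of mice holds B cells and antibody-secreting cells among its immune cells. In a bulk sample, fewer cells of a type and less RNA per cell cannot be told apart.

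Every member is a probe of 60 bases. Those on which the results turn are printed 5′ to 3′ as the array files give them, and capitals mark a match to TATTNCTGN, which falls near the end of many kappa variable segments, where the codons for a conserved tyrosine and cysteine lie.
IGKV5-48: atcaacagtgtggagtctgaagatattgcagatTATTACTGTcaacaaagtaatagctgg
IGKV3-10: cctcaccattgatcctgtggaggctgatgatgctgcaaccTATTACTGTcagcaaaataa
LOC100047220: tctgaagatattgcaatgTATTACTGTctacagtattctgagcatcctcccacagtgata
IGKV4-51: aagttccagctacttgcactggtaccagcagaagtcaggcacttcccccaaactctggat
IGHV1S5: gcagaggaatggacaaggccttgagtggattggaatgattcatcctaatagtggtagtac
Ighg: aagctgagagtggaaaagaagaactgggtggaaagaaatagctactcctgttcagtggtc
LOC100047788 probe 1: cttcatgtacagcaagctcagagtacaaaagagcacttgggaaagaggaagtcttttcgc
LOC100047788 probe 2: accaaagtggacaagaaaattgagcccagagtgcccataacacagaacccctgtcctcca
Igh probe 1: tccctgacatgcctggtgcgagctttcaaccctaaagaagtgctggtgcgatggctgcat
Igh probe 2: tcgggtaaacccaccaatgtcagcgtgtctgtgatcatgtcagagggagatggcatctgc

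The first 3 sequences carry the motif at different places in the probe, and LOC100047220, which shares it, did not follow the other probes in the values. Searched on both strands, TATTNCTGN was in 12 of the 29 kappa variable probes (41.4%), 1 of the 18 heavy variable probes (5.56%), 0 of the 12 remaining chain probes and 599 of all 40628 probes (1.47%). A match describes the probe and nothing more.

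Many members read near-identical segments and are not separate measurements. Without gaps, over at least 30 bases, 18 pairs of members matched at 80% of bases or more, and 26 members were in such a pair. IGKV10-96 and IGKV10-94 overlapped at 40 of 41 bases (97.6%), and cross-hybridisation between such segments cannot be told apart from their own signal.
IGKV10-94: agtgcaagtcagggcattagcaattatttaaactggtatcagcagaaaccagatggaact
IGKV10-96: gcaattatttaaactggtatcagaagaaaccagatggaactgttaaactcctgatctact

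The probe named Igh-6, described in the files as the heavy chain of IgM, matched a kappa segment better than any heavy variable probe. It shared 34 of 44 bases (77.3%) with IGKV8-34, against at most 46.6% with a heavy variable probe, and is therefore called by its file name only. It is counted with the other heavy chains, a mixed class. In that class D17387 and XM_001472404 matched heavy variable probes at 92.3 and 90.6% of bases. In the pair below capitals mark the shared bases.
Igh-6: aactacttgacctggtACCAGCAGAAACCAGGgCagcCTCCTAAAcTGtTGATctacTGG
IGKV8-34: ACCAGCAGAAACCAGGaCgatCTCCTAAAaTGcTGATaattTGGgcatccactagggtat

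The LFC week 3 and HFC week 12 arrays stood apart before any comparison. On the LFC week 3 array 97.05% of spots were called well above background, 16431 spots were marked as outliers, and its Spearman correlation with each other array had a median of 0.694. On the HFC week 12 array the values were 94.5%, 10531 spots and 0.938. On the other 37 arrays 53.7 to 79.6% of spots passed that background call, the outliers numbered 21 to 387, and the median correlation was 0.902 to 0.952. Outlier spots were dropped, so only 28 of the 59 chain probes had a value at LFC week 3 and 38 at HFC week 12. The tissue label was borne out by its markers, since 10 of 10 adipocyte genes were well above background on all 39 arrays. The scan period differed between days 1 to 14, which came later, and weeks 0 to 18, and the 75th percentile of the signal ran from 119 to 1472 over the 37 arrays. The week 0 arrays, from the scan period of the late arrays, lay within the early range of the chain probes on either diet. They are only 1 array per diet. In the late against early comparisons, time and scan period therefore cannot be told apart, and the part of the scan period was not tested.

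Values are log2 of the processed signal minus the array's 75th percentile. Because levels of different probes cannot be compared, the probes were summarised by their deviation, each value minus that probe's median over the 37 arrays. On LFC arrays the chain probes were low early and high late. The median deviation was −2.71 at day 1, −2.18 at day 6, −0.91 at day 10, −1.14 at day 14 and −1.24 at week 0. It was 1.99 at week 3, 2.05 at week 6, 1.75 at week 9, 2.62 at week 12, 2.14 at week 15 and 0.87 at week 18. The LFC groups did not overlap, with a mean of −1.64 ± 0.77 early (SD, n = 5) and 1.90 ± 0.58 late (SD, n = 6), or 1.89 ± 0.65 (SD, n = 5) without week 3.

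On HFC arrays the early values were also low, and the late values were lower and more scattered than on LFC arrays. The median deviation was −3.11 at day 6, −2.49 at day 10, −0.84 at day 14 and −1.59 at week 0. It was −3.20 at week 3, 0.40 at week 6, 0.17 at week 9, −0.06 at week 12, 1.27 at week 15 and 0.10 at week 18. The late mean was −0.22 ± 1.54 (SD, n = 6), or −0.25 ± 1.72 (SD, n = 5) without week 12. The HFC week 3 array lay below every LFC array and below the early HFC arrays.

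The KAL-1 groups were also wide. From week 3 to week 18 the median deviation on HF5 was −0.93, −2.44, 0.36, 0.12, 2.52 and −0.52, and on HF20 it was −1.77, 2.40, 2.57, −1.05, 1.52 and 1.39. On HF75 it was −2.24, 1.18, 1.06, 0.86, −1.89 and 0.00. The means were −0.15 ± 1.64 for HF5, 0.84 ± 1.82 for HF20 and −0.17 ± 1.53 for HF75 (SD, n = 6 each). All 4 high-fat groups were below 0 at week 3, and each group had both low and high arrays.

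**Figure D1:**
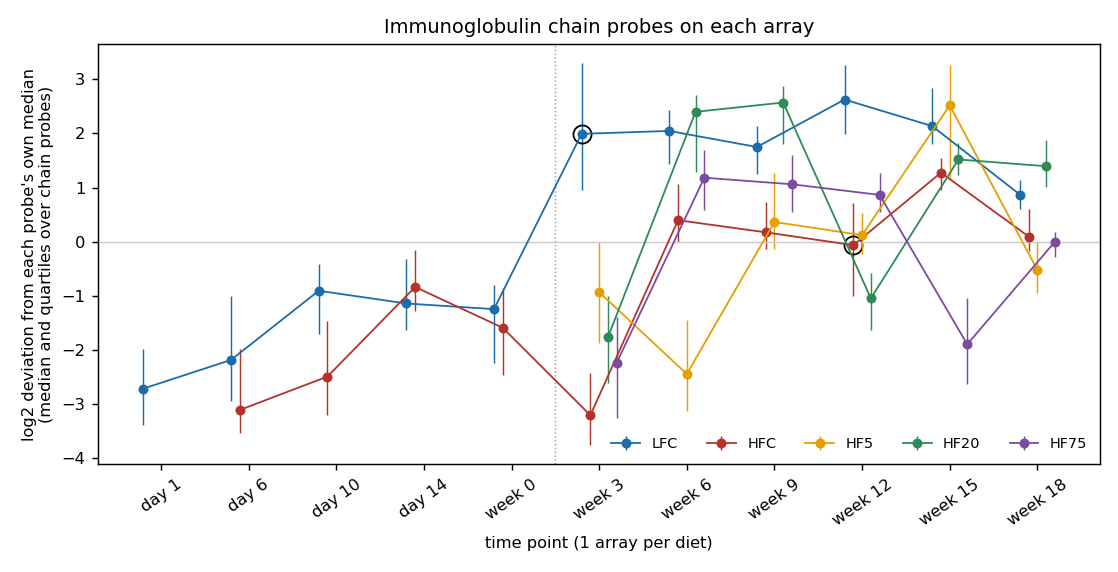
Median deviation (log2) of the 59 immunoglobulin chain probes on each array against time, by diet, with bars for the quartiles over probes. Rings mark the LFC week 3 and HFC week 12 arrays. LFC arrays pass from −2.71 at day 1 to between 0.87 and 2.62 late, while late high-fat arrays lie on both sides of 0.

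The classes of chain moved together. Over the 37 arrays the class medians correlated at 0.96 between heavy and kappa variable probes, 0.96 between joining chain and kappa variable probes, 0.92 between joining chain and heavy variable probes, and 0.85 to 0.87 between gamma heavy chain and the other named classes. These are descriptions over arrays that share their scaling and, for each time point, most often a scan day. On the 2 arrays that stood apart the remaining values differed between classes. At LFC week 3 the deviation was −3.06 for Igj probe 2 and −2.80 for LOC100047788 probe 1, each the only probe of its class with a value, but the median was 2.64 over 9 heavy variable and 1.84 over 13 kappa variable probes. The 3 members with a value that are not chains had a median of 3.39 on that array. At HFC week 12 the joining chain was at −1.48 (2 probes) and gamma heavy chains at 2.87 (3 probes), with heavy variable probes at 0.49 and kappa variable probes at −0.06.

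**Figure D2:**
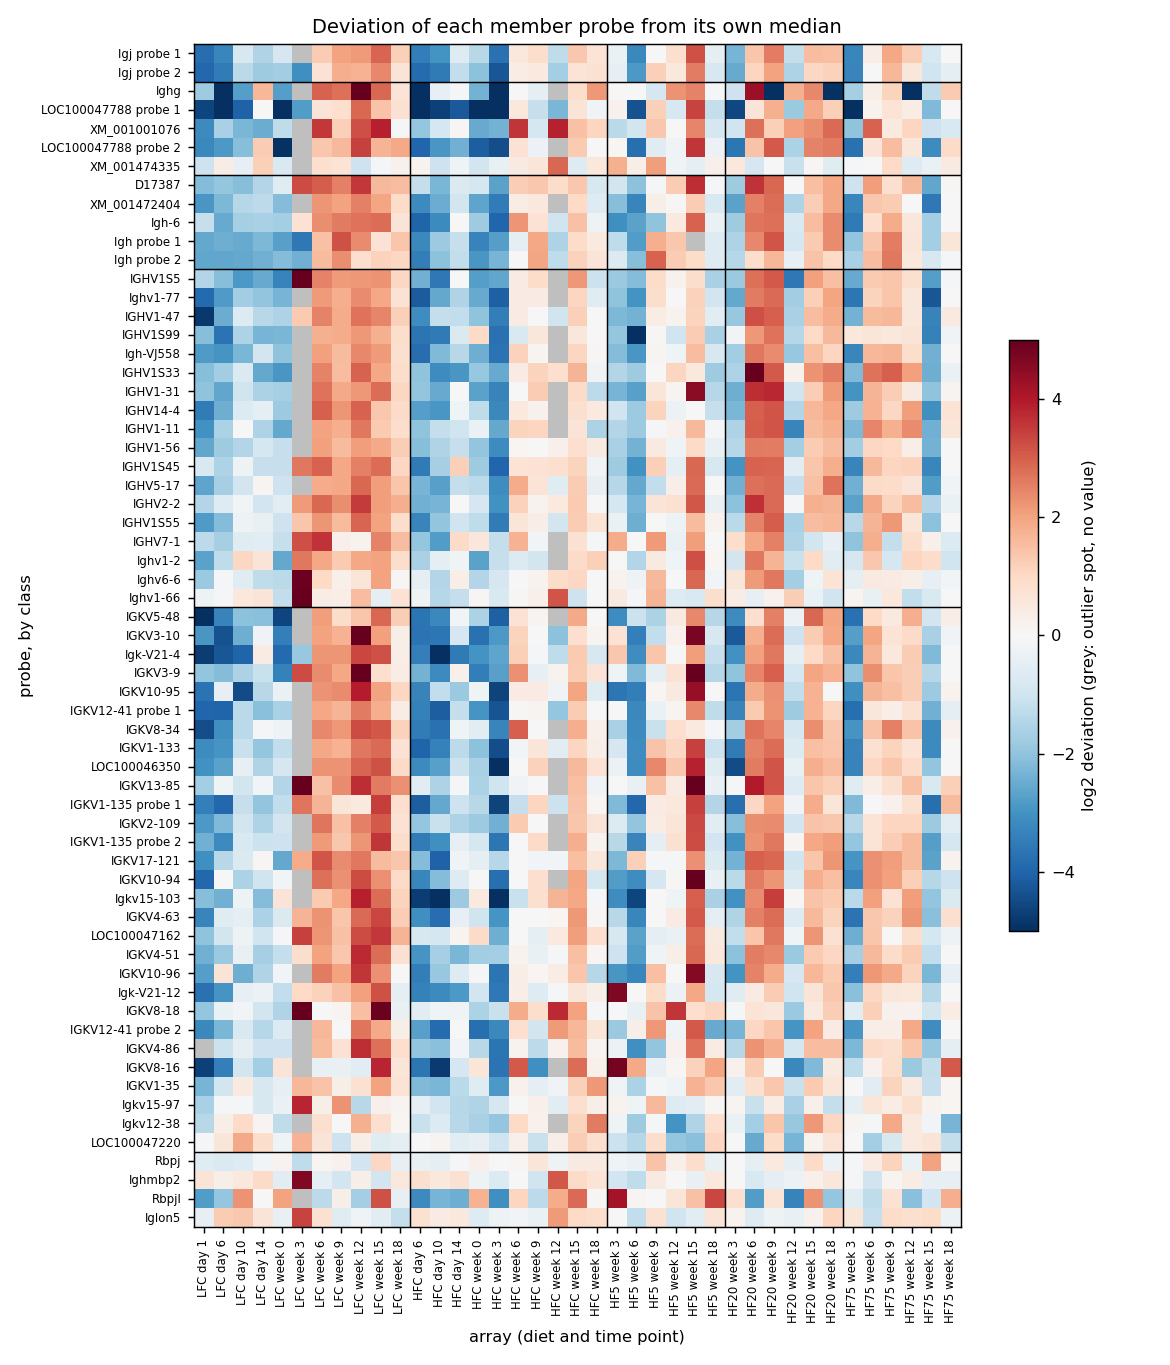
Deviation (log2) of each of the 63 members (rows, grouped by class) on each of the 39 arrays (columns, grouped by diet and time), with colours limited to 5 on either side of 0 and grey for spots marked as outliers. Early arrays of either diet are low in nearly all chain rows, and the LFC week 3 and HFC week 12 columns hold most of the grey.

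Detection followed the same course. Each probe was counted over the arrays on which it had a value. On the 5 early LFC arrays 21 of the 59 chain probes were well above background on every such array and 9 on none. On the 6 late LFC arrays 47 were above background on every such array and 1 on none. The corresponding numbers were 14 and 7 on early HFC arrays, 19 and 2 on late HFC arrays, 15 and 3 on HF5, 20 and 2 on HF20, and 22 and 4 on HF75. The LFC week 3 array, with most of its spots above background, is among the late LFC arrays. Only 28 of the 59 probes had a value there, and 38 at HFC week 12. The late LFC and late HFC counts therefore include probes judged on fewer arrays.

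Comparisons used limma's moderated test over all probes that passed a filter on detection, with Benjamini-Hochberg adjustment over all of them and a threshold of 0.05. A probe called past the threshold is one with an adjusted p under 0.05. Late against early within LFC is the contrast in which the group was noticed, so its counts are descriptions. Of the 59 chain probes 52 passed the filter, 30 were called, all higher late, where 0.49% of all probes were called and 0.27% as higher. With normexp background correction 0 were called and the median was 1.83, and without day 6 the 30 became 17. At an unadjusted p under 0.05 there were 50 of 52, where the rate over all probes was 5.52%. The median difference over the 59 probes was 3.69, against −0.09 over all probes tested, and without LFC week 3 it was 3.76 with 36 of 51 called. For 39 of 52 probes all late LFC values lay above all early ones, against 0.583% of all probes. The filter can be met by late arrays alone. It was for IGHV1S33 and IGHV7-1, which were not well above background on any early LFC array and are among the 39.

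By class, the median late minus early LFC difference was 3.57 for the joining chain, with 1 of 2 probes called, and 4.51 for gamma heavy chains, with 0 of 3 called. The gamma median is that of XM_001001076, which was dim on every early LFC array. With the 8 chain probes that have a bound set to it, and the 1 without a bound left out, the median was 4.61 for gamma heavy chains, 3.46 for kappa variable, 3.36 for heavy variable and 3.55 for all chain probes. The measured median was 3.70 for other heavy chains (3 of 5 called), 3.41 for heavy variable (14 of 16) and 3.63 for kappa variable probes (12 of 26). The 4 members that are not chains had a median of 0.12, and 0 of 4 were called.

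The joining chain, which links antibody units, showed the rise. Igj probe 1 was at −2.94, −2.38, 0.05, −0.63 and 0.01 on LFC days 1, 6, 10 and 14 and week 0, and at 2.08, 2.90 and 3.79 (lowest, median and highest) on 5 late arrays, with no value at week 3. The groups did not overlap, and the fitted difference was 3.96 ± 0.64 (SE, limma adjusted p = 0.0218). Igj probe 2 differed by 3.18 in the same fit, with an adjusted p of 0.306. Its LFC week 3 value, −0.16, lay far below the other late LFC arrays, and without that week the difference was 3.94 with an adjusted p of 0.0113.

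Gamma heavy chains, the constant parts of IgG, varied widely between arrays. Ighg, described in the files as gamma 2A, ran from −7.91 to −0.25 early (median −4.65) and from −1.27 to 3.91 late (median 0.96) on LFC arrays. The groups overlapped, and the difference was 5.34 ± 1.26 (SE, limma adjusted p = 0.149). LOC100047788 probe 1 was at −2.45, −3.87, −1.88, 2.20 and −4.23 on the early arrays and at −0.64, 2.96 and 5.05 late (lowest, median and highest). The day 14 array was high for this gene, and the difference of 4.83 had an adjusted p of 0.146, or 5.51 and 0.0449 without week 3. LOC100047788 probe 2, from another part of the same gene, differed by 4.38 with an adjusted p of 0.093.

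Igh-6 was tight early and high late on LFC arrays. It read −3.42, −4.78, −3.94, −3.90 and −3.96 early and ran from −1.64 to 0.52 late (median 0.21). The groups did not overlap, with a difference of 3.70 ± 0.49 (SE, limma adjusted p = 0.00721). Igh probes 1 and 2, described in the files as the J558 family, are not settled as variable or constant. They reached saturation, probe 1 on 4 arrays and probe 2 on 9, where the level is only a lower limit. Igh probe 1 was between 0.75 and 1.22 early and between 4.20 and 6.68 from week 6 to week 18, but at −0.10 at week 3. With week 3 included its difference was 3.42 with an adjusted p of 0.287, and that of probe 2 was 3.22 with an adjusted p of 0.0701. Without week 3 the differences were 4.32 and 3.84, each with an adjusted p of 0.00269.

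Variable segments, which code the antigen-binding part, held the remaining large differences. IGKV5-48 was at −9.46, −7.80, −6.50, −6.55 and −9.05 early and between −3.54 and −1.57 on 5 late LFC arrays (median −3.06). The groups did not overlap, and the difference was 5.12 ± 0.65 (SE, limma adjusted p = 0.00721). Of its early LFC values only that of day 14 was well above background, so the size of the difference is uncertain. IGHV1S5, a heavy variable segment, differed by 5.08 ± 0.71 (SE, limma adjusted p = 0.00878). It was well above background early on LFC only at day 1, with the same limit on the size. Its week 3 value of 0.02 was the highest of its late LFC arrays, and without it the difference was 4.46 with an adjusted p of 0.00269. IGKV3-10 differed by 4.97 with an adjusted p of 0.0511, just outside the threshold, and IGKV4-51 by 3.4 with one of 0.0222. Ighv1-77 and IGHV1S99 differed by 4.35 and 4.07, each with an adjusted p of 0.00483.

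Of the tested chain probes LOC100047220 alone was lower late than early on LFC arrays. This kappa variable probe ran from −6.71 to −4.63 early (median −5.90) and from −7.55 to −4.77 late (median −6.59). The ranges overlapped, and the difference was −0.52 ± 0.54 (SE, limma adjusted p = 0.932). Across the 37 arrays its correlation with the chain median was −0.08, near those of XM_001474335 (0.06) and Ighv1-66 (0.12). XM_001474335 was well above background on only 1 array. The highest correlation was 0.98. The chain median includes each probe itself.

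Several probes were not well above background on any early LFC array, so that only a bound can be given. A bound sets the mean of the bright group against, per dim array, the higher of the lowest signal well above background and the probe's own. XM_001001076, a gamma heavy chain probe, was at least 13.8-fold higher late, and IGHV1S33 at least 10.4-fold, neither with a value at LFC week 3. For 6 further variable probes, whose late means include week 3, the bounds ran from 1.86-fold for Ighv1-66 to 8.98-fold for IGKV13-85. Without week 3 they fell to 1.07-fold and 5.92-fold, IGKV8-18 fell from 4.82-fold to 2.62-fold, Ighv6-6 from 2.85-fold to 1.77-fold, and Igkv15-97 was not well above background on any of the other late LFC arrays.

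**Figure D3:**
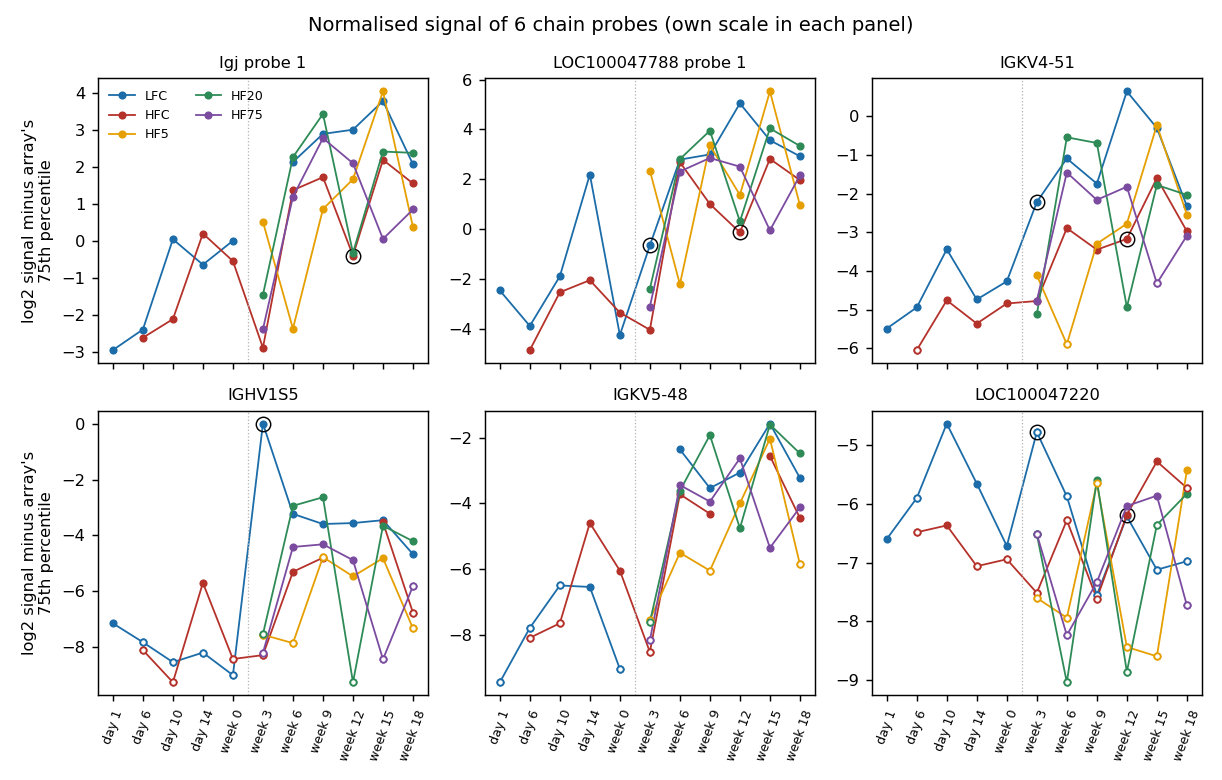
Values (log2 of the processed signal minus the array's 75th percentile) of 6 members on each array against time, by diet, with open markers where the probe was not well above background. Igj probe 1, LOC100047788 probe 1, IGKV4-51, IGHV1S5 and IGKV5-48 are higher on late LFC arrays, and LOC100047220 is not.

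On the HFC diet the chain probes also read higher late, by less and with fewer past the threshold. Of 50 probes that passed the filter 0 were called by limma. At an unadjusted p under 0.05 there were 14, all higher, where 16.8% of all probes passed in either direction and 8.05% as higher. The methods' t-test on the same values gave 5 of 50, against 15.4% of all probes. The median difference was 1.82 over the 59 probes, against 0.03 over all probes. Leaving out HFC week 3 raised the 14 to 46, and leaving out day 6 lowered it to 5. The shares of all probes in those fits are not given here, so these counts cannot be read as particular to the chain probes. For 1 of 50 probes, Igk-V21-4, all late HFC values lay above all early ones, against 0.915% of all probes. That kappa variable probe ran from −7.42 to −5.36 early and from −5.0 to −1.06 late, a difference of 3.38 ± 0.76 (SE), with an unadjusted p of 0.00098 and a limma adjusted p of 0.21. LOC100047788 probe 1 differed by 3.91 with an unadjusted p of 0.00851.

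Diet was compared at matched time points, with time point as a block. These comparisons use the late LFC arrays that drew attention to the probes, so their counts are read with that in mind. HFC was below LFC for most chain probes. Over 10 time points the median difference was −1.06, against 0.03 over all probes, and 58 of the 59 probes were lower on HFC. Of 49 probes that passed the filter 0 were called by limma. At an unadjusted p under 0.05 there were 34, all lower, against 3.05% of all probes (1.68% lower), and 28 by the methods' t-test, against 3.18%. The 34 became 13 with normexp background correction and 15 with quantile normalisation. The smallest adjusted p of a member was 0.998, so no probe can be called different on its own.

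At early time points the difference was small or mixed in sign, apart from day 10, and at all late time points it was negative. The median HFC minus LFC difference was −0.42 at day 6, −1.42 at day 10, 0.43 at day 14 and −0.19 at week 0. It was −1.65 at week 6, −1.42 at week 9, −1.0 at week 15 and −0.74 at week 18, with 54, 56, 53 and 46 of the 59 probes lower. At week 3, with LFC the array that stood apart, it was −4.67 with 26 of 28 lower, and at week 12, with HFC that array, −2.77 with 31 of 38 lower. Without those 2 arrays the median over the fit was −0.77, with 28 of 47 at an unadjusted p under 0.05.

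IGKV4-51 had the smallest p of the members in this comparison. On HFC it read −6.04, −4.76, −5.36 and −4.84 early and ran from −4.77 to −1.60 late (median −3.07), against −5.49, −4.94, −3.44, −4.73 and −4.27 early and −2.32 to 0.65 late (median −1.41) on LFC. It was lower on HFC at 10 of 10 time points, though the late ranges overlapped. The difference was −1.54 ± 0.30 (SE), with an unadjusted p of 0.000259 by limma. IGKV4-63 and IGHV2-2 were lower at 9 of 10 time points, with differences of −1.82 (SE 0.46, unadjusted p = 0.00191 by limma) and −1.78 (SE 0.46, unadjusted p = 0.00212 by limma).

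Over weeks 3 to 18 alone, the median HFC minus LFC difference was −1.91, against 0.06 over all probes. Of 55 probes that passed the filter 0 were called by limma and 24 had an unadjusted p under 0.05, all lower, against 2.31% of all probes (1.06% lower). The methods' t-test gave 30 of 52, against 2.53%. Without week 3 the 24 became 7, and without the 2 arrays apart 9 of 54 with a median of −1.68. For 7 of 55 probes every late HFC value lay below every late LFC value, against 0.0986% of all probes. They were D17387, IGHV1-47, IGHV1-56, IGHV14-4, IGHV1S99, IGHV2-2 and LOC100047788 probe 2, so 5 of the 7 were classed as heavy variable segments. D17387, classed with the other heavy chains, shared 36 of 39 bases (92.3%) with IGHV2-2. IGHV2-2, for example, ran from −8.62 to −4.28 on late HFC and from −3.79 to −2.12 on late LFC arrays.

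The 4 high-fat diets together, 24 late arrays, were below the 6 late LFC arrays for 58 of the 59 chain probes. The median difference was −1.56, against 0.04 over all probes, and ran over the tested probes from −2.98 for Ighg to −0.45 for Igh probe 2, whose difference is limited by saturated spots in both groups. Of 55 probes that passed the filter 0 were called by limma, with a smallest member adjusted p of 0.757. At an unadjusted p under 0.05 there were 33, all lower, against 6.1% of all probes (3.31% lower), and 29 by the methods' t-test, against 3.27%. Without the 2 arrays apart there were 22 of 54 with a median of −1.47, and without week 12 there were 14. The values of the 24 and the 6 arrays overlapped for every tested chain probe.

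By class the median difference of the 4 high-fat diets from LFC was −1.14 for the joining chain, −1.34 for gamma heavy chains, −1.70 for other heavy chains, −1.57 for heavy variable and −1.57 for kappa variable probes. An unadjusted p under 0.05 was reached by 1 of 2, 1 of 4, 3 of 5, 13 of 16 and 15 of 28 tested probes in that order. The members that are not chains had a median of 0.01, and Rbpj, a transcription factor of the Notch pathway, was 0.49 higher (unadjusted p = 0.028 by limma).

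LOC100047162 had the smallest p among the members. It ran from −3.79 to −1.73 on late LFC (median −2.53) and from −7.68 to −3.17 on late HFC arrays (median −5.01). The medians were −5.64 on HF5, −4.19 on HF20 and −5.38 on HF75. The mean high-fat value was lower at 6 of 6 time points, with a difference of −2.44 ± 0.56 (SE). The unadjusted p was 0.000206 by limma. IGHV2-2 (−2.08, SE 0.61, p = 0.00224), IGHV1-47 (−2.07, SE 0.63, p = 0.00301) and IGHV1S5 (−2.73, SE 0.83, p = 0.00332) followed in the same limma fit, unadjusted.

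Igh-6 ran from −6.24 to −0.08 on late HFC arrays (median −2.03), against −1.64 to 0.52 on late LFC. The difference of the high-fat diets was −1.99 ± 0.65 (SE, unadjusted p = 0.00516 by limma). For Ighg it was −2.98 ± 1.30 (SE, unadjusted p = 0.0324 by limma). Igj probe 1 ran from −2.88 to 2.20 on late HFC (median 1.47), against 2.08 to 3.79 on LFC, and differed by −1.37 ± 0.66 (SE, unadjusted p = 0.0487 by limma). Igj probe 2 differed by −0.92 ± 0.55 (SE), with an unadjusted p of 0.11.

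**Figure D4:**
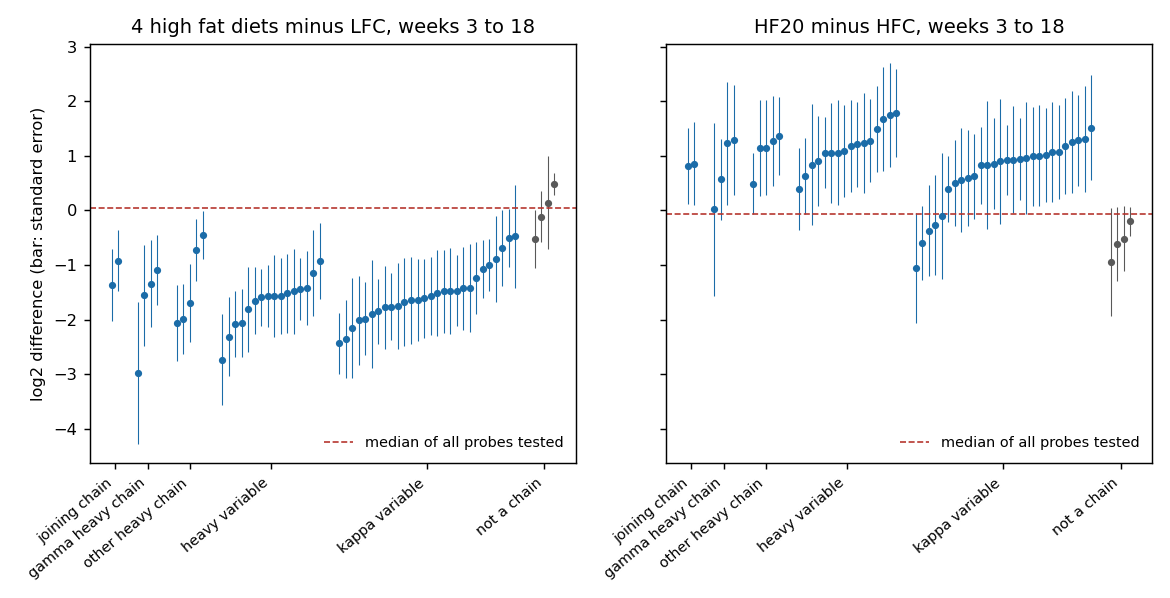
Difference (log2) with its SE for each tested chain probe (blue) and each tested member that is not a chain (grey). Panels show the 4 high-fat diets minus LFC and HF20 minus HFC over weeks 3 to 18, with a dashed line at the median of all probes tested. In the high-fat comparison all 55 chain points lie below 0, and in the HF20 comparison most chain points lie above.

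The KAL-1 doses were each compared with HFC over weeks 3 to 18, and all share the HFC arrays. No dose moved the chain probes past the threshold. The median difference was 0.02 for HF5, 0.94 for HF20 and 0.00 for HF75, against −0.03, −0.07 and −0.01 over all probes. Of 55 probes 0 were called by limma at each dose. At an unadjusted p under 0.05 there were 0 for HF5 (all probes 3.42%), 1 for HF20 (4.84%) and 0 for HF75 (1.5%). The methods' t-test gave 0 of 43 for HF5, 22 of 50 for HF20 and 0 of 50 for HF75, against 3.47, 2.39 and 2.45% of all probes in that test. For the mean of the 3 doses the median was 0.35, with 0 of 55 called, 0 at an unadjusted p under 0.05 (all probes 1.75%) and 3 of 54 by the methods' t-test (2.03%).

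HF20 had the highest readings of the 3 doses. In that comparison 51 of the 59 chain probes were higher. The probe at an unadjusted p under 0.05 was IGHV1S33, 1.79 ± 0.81 (SE, unadjusted p = 0.0368, adjusted p = 0.78, limma). Igh probe 1 was higher by 1.36 and Igj probe 1 by 0.86, each at 6 of 6 time points. The first had an unadjusted p of 0.0681 and was saturated on 3 of the 6 HF20 arrays, which limits its difference. The median differences did not follow the order of dose. Against LFC, the HF20 array at week 12 was lower for 59 of 59 chain probes with a median of −3.56, and the median was −3.38 at week 3 (25 of 28 lower) and −0.72 at week 15 (46 of 59 lower). At weeks 6, 9 and 18 the median was 0.27, 0.90 and 0.65 above LFC. At week 6 the HF20 and HF75 arrays were scanned on another day than the LFC, HFC and HF5 arrays, and HF5 was the low array of its own scan day.

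The change over time of the diet difference was tested as the late minus early difference of HFC minus LFC. The median was −1.07 over the 59 probes, against 0.15 over all probes. Of 49 probes that passed the filter 0 were called by limma, 8 had an unadjusted p under 0.05 (all probes 5.14%), and the methods' t-test gave 7 (4.09%). Of the 8, 7 were negative. LOC100047162 was at −2.90 ± 0.85 (SE, unadjusted p = 0.0056 by limma) and IGHV1-47 at −2.11 (unadjusted p = 0.0109 by limma), while Igkv12-38 was positive at 2.02 (unadjusted p = 0.00897 by limma). A difference between diets in the late rise was therefore not established for any member.

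Within weeks 3 to 18, over all 5 diets, no chain probe changed past the threshold. The median slope was 0.09 per week, against 0.0054 over all probes. Of 55 probes 0 were called by limma, 15 had an unadjusted p under 0.05, all with positive slopes, against 9.89% of all probes, and the methods' t-test gave 12, against 10.2%. IGKV5-48 had a slope of 0.19 per week (SE 0.058, unadjusted p = 0.00349 by limma), LOC100047788 probe 1 of 0.22 and Igj probe 2 of 0.16. Without week 3 the count became 1 and the median −0.03 per week, so the trend rests on that week.

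Genes of the cells that make antibody were read from lists of B cell, plasma cell, T cell and other markers. The median of the plasma cell list correlated with the chain median at 0.73 over the 37 arrays, the B cell survival and homing list at 0.65, the B cell list at 0.64, the T cell list at 0.56, the blood list at 0.14, the gut list at 0.13, the epididymis list at 0.10, the lymph node list at 0.09 and the adipocyte list at −0.37. The lists for V(D)J recombination, immunoglobulin receptors and class switching were at 0.33, 0.21 and −0.36. These are descriptions over arrays that share scaling. Among single genes 2010001M09Rik (now Mzb1, a chaperone of antibody-secreting cells) correlated at 0.89, Pou2af1, a B cell transcriptional coactivator, at 0.85, and Tnfrsf13b, the receptor TACI, at 0.79. Il7r and the T cell gene Cd28 followed at 0.78 and 0.74. Genes of the plasma cell list differed widely, down to −0.08 for Fkbp11. Slamf7 was at 0.55, Derl3 at 0.53 and Tnfrsf17 at 0.42, but Xbp1 at 0.26, Prdm1 at 0.21, Sdc1 at 0.14 and Irf4 at 0.13.

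**Figure D5:**
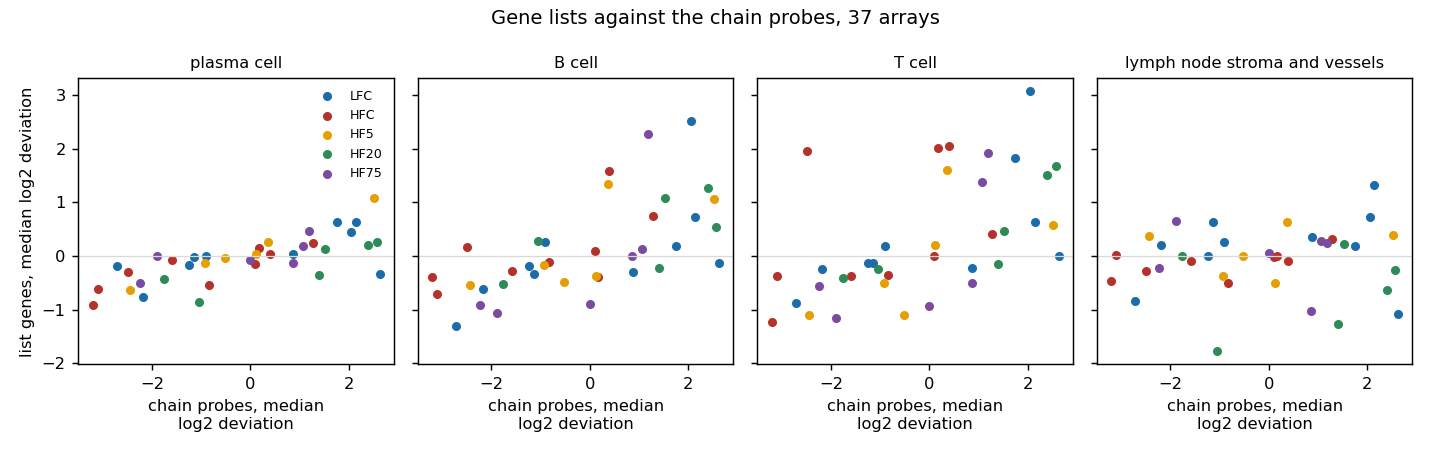
Median deviation (log2) of the plasma cell, B cell, T cell and lymph node marker lists (vertical) against the median deviation (log2) of the chain probes (horizontal) on each of the 37 arrays, coloured by diet. The plasma cell list follows the chain probes most closely, with a correlation of 0.73, and the lymph node list least, with 0.09.

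Of the list genes Tnfrsf13b and Il7r, the interleukin 7 receptor of lymphocytes, passed the threshold late against early within LFC, higher by 3.23 (SE 0.48, limma adjusted p = 0.0136) and 2.72 (SE 0.54, limma adjusted p = 0.0497). Tnfrsf13b was well above background on 16 arrays only. Pou2af1 ran from −2.64 to 0.04 early and from 0.15 to 3.26 on 5 late LFC arrays, 3.08 higher with an adjusted p of 0.0723. As lists, the median late minus early LFC difference was 1.32 for B cell (4 of 15 tested genes at an unadjusted p under 0.05), 0.11 for plasma cell (4 of 16) and 1.31 for T cell genes (4 of 12). The genes so counted were all higher. Of all probes 5.52% reached that p, 2.14% as higher, and 0.49% were called.

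In the 4 high-fat diets against LFC the list medians were −0.54 for B cell genes (4 of 15 at an unadjusted p under 0.05, 3 lower and 1 higher), −0.04 for plasma cell genes (2 of 16, lower) and −0.80 for T cell genes (3 of 12, lower), and no gene was called. Of all probes 6.1% reached that p, 3.31% as lower and 2.79% as higher. The difference was −1.40 for Pou2af1, −1.48 for Cd79a, a subunit of the B cell receptor, and −1.24 for Cxcl13, the chemokine that draws B cells, with unadjusted p of 0.0058, 0.0258 and 0.0279 by limma. The summed B cell level, on the log2 scale, ran from 2.85 to 3.74 on early LFC arrays, 2.78 to 5.14 on late LFC and 3.42 to 4.22 on late HFC, and the summed T cell level from 0.16 to 1.42 and 0.89 to 4.38 on early and late LFC. The summed plasma cell level ran from 5.05 to 5.86 and 3.18 to 5.93. Of the defining markers Pax5 and Blk were above background on 8 of 39 arrays each, and Rag1 on 1. The summed epididymis level ran from −3.60 to 7.33 over the arrays. The part of these cells in the chain results was not tested.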

How the data were processed

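Total RNA of epididymal adipose was hybridised to 39 Agilent 1-colour arrays (Cy3). The authors deposited scanner output holding spot intensity, made with Agilent Feature Extraction 9.1 per the labels and 10.5.1.1 per the file headers, and a table of log2 differences from LFC, which the authors made in GeneSpring and which served only as an alternative. Members and gene lists were chosen with earlier results of these data known. The main setting was log2 of the processed intensity minus each array's 75th percentile. Outlier spots were left out, and the 43803 non-control spots were averaged to 40628 probes. A probe entered a fit if it was well above background on 10 or more of its 20 arrays (HFC and LFC), 6 of 30 (late), 5 of 11 (LFC) or 4 of 10 (HFC). limma 3.58.1 in R 4.3.3 was fitted to all such probes, 2-sided, and p-values were adjusted by Benjamini-Hochberg over them. Diets were compared with time point as a block. The methods' t-test was a plain test on the paired differences, or between the early and late arrays. With 1 array per diet and time point, p-values measure the spread between time points, and precision is limited by how few arrays there are. Named were the constant, joining and non-chain members, the variable probes with the greatest and least late minus early difference, and the members with the smallest p in each comparison. Probe sequences are those of the files. Of the 63 members 5 were matched to RefSeq names, and no coordinates are given. Alternatives were other background corrections, scalings, filters, array weights, slide or scan day as a block, and each time point left out. The code was tested on simulated data with 200 changed probes.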

Additional observations from a re-analysis of the deposited data

Results flagged for a closer look

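In groups of 4 to 10 arrays, a gap test marks a highest or lowest array far from the rest, and chance marks about 1 in 20 groups. It marked 17 of 252 groups of member values (6.75%), besides the chain median. That median was lowest on late HFC at week 3, −3.20. The LFC week 3 array, which stood apart, was far below the other late LFC arrays for Igj probe 2 (−0.16), Igh probe 1 (−0.10) and Igh probe 2 (2.49). It was far above them for Ighmbp2 (−1.98), IGHV1S5 (0.02) and Ighv1-66 (−2.55). The HFC week 12 array, which also stood apart, was far from the others for XM_001474335 (−5.37) and Ighv1-66 (−4.69). The HFC week 3 array was low for LOC100047788 probe 2 (−5.72), IGHV2-2 (−8.62) and Igk-V21-12 (−5.94). Of early arrays, HFC day 14 was high for IGKV3-10 (−4.06) and LFC day 14 for Igk-V21-4 (−1.96). The remaining values were LOC100047788 probe 2 at LFC week 12 (2.13), IGKV8-16 at LFC week 15 (−0.69), IGKV13-85 at HF5 week 15 (−2.51) and IGHV1S99 at HF75 week 15 (−6.07). All are log2 values relative to the array's 75th percentile, except the chain median, which is a deviation.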

How the results depend on the processing

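No called difference changed sign. Late against early within LFC, the 30 chain probes called became 0 with normexp background correction (44 of 52 at an unadjusted p under 0.05), 19 with quantile normalisation, 12 of 20 tested with probes above background on every array, 11 by the methods' t-test after adjustment, 0 with week 0 as the only early array, and 17 to 36 with 1 time point left out, lowest without day 6 and highest without week 3. The median of 3.69 became 1.83 with normexp. Late against early within HFC, array weights gave 40 called in place of 0. The share of all probes called in that fit is not given here, so the 40 cannot be read as particular to the chain probes. The same holds for the other counts under the alternatives that stand without such a share. The median slope over weeks 3 to 18 ran from −0.0281 to 0.16 with 1 week left out, lowest without week 3. Medians of comparisons with no call crossed 0 when a week was left out: HF5 against HFC ran from −0.36 to 0.56 and HF75 against HFC from −0.20 to 0.69. The causes were not tested. In the 4 high-fat diets against LFC the number at an unadjusted p under 0.05 ran from 14 to 30 with 1 week left out, and scan day as a block, chosen after seeing the data, gave 39 of 55 with a median of −1.71. For HFC against LFC over 10 time points the 34 at an unadjusted p under 0.05 became 13 with normexp and 15 with quantile normalisation. Scalings moved the median of all probes by over 0.1: in that comparison it was 0.28 with median scaling, −0.29 with normexp and 0.17 with quantile normalisation, while that of the chain probes was −1.39, −1.07 and −1.31. The other 206 counts and 211 medians under the alternatives stayed within 1.5 times, or within 1 SD between time points, of the reported values. This tally is a weak check. Apart from late against early within LFC every reported count was 0, and a count of 0 was taken as unchanged. The SD was 1.645 for HF5 against HFC, so medians that crossed 0 could stay within it. For the 30 called probes taken singly, 453 differences under the alternatives kept direction and threshold and 177 kept the direction only. Slide as a block could not be fitted for the late against early comparisons. All diet comparisons were paired by time point, and no replicate number pairs arrays in another way. Detection limits the dim probes, since 9 of 59 chain probes were above background on no early LFC array, and lost spots limit LFC week 3, where 28 of 59 had a value.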

Other observations

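The rule leaves out probes whose description names a chain in other words. There were 58 of them. Some were described as alpha chains, of IgA, as no member was, and none as lambda, IgD or IgE. On LFC arrays 31 of the 58 passed the filter and 20 were called higher late by limma, where 0.27% of all probes were called higher. LOC100045391, described as an alpha chain, was 4.59 higher late than early on LFC and 2.36 lower in the 4 high-fat diets than in LFC. LOC100046275, described by Igha, was 4.24 higher and 2.06 lower in the same comparisons, LOC100046359 (Ighg1) 3.94 higher and 1.60 lower, and LOC100046894 (Igk-C, the kappa constant region) 3.46 higher and 1.75 lower. In the 4 high-fat diets against LFC 21 of 34 tested probes had an unadjusted p under 0.05, against 6.1% of all probes. These probes were gathered after the members' values were known, and the contrast is the one in which the group was noticed.

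Among probes outside the rule with values on at least 30 arrays, the pattern most like the chain median was that of EG211331, with a correlation of 0.98 over the 37 arrays. LOC677563, Gm1418, LOC100046359, LOC675659, Gm4242, LOC677484, LOC100046894, EG668544 and LOC636126 followed, down to 0.97. The correlation is over arrays that share scaling and scan days.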
